A study of Mus musculus with 8 samples.

Results

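The proximal segment of mouse chromosome 7 was taken as bases 1 to 30000000 in the mm9 coordinates of the array files, and its members are the non-control probes placed there. It held 959 of the 55681 non-control probes on the array, against 3056 on the rest of chromosome 7. Membership rests on position, but the segment itself was chosen by the knockout minus wild-type differences on these same arrays, because Cacng7, Cblc and an unnamed transcript in it, TC1728321, rose in knockout lungs. Their differences between genotypes are therefore given as descriptions without a test, and nothing here is supported by them. The question was whether other changes gathered in the same segment more than on the rest of the chromosome.

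RNA came from whole lung of 8 C57BL/6 mice, all given lipopolysaccharide (LPS), a bacterial cell wall component that triggers inflammation, and all sampled at 12 h. The wild-type group had 4 mice and the knockout group had 4 mice lacking GGPPS1 in the lung. GGPPS1 is geranylgeranyl diphosphate synthase, the enzyme that makes the lipid attached to many small GTPases, and its gene Ggps1 lies on chromosome 13. The sources used here do not give the promoter that drove the deletion, the deleted exons or the ages of the mice, and no group without LPS was analysed here. Each mouse had its own single-colour Agilent array, so the number of arrays limits the precision.

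A level below is the log2 signal of a probe minus the 75th percentile of its array, and a difference is the mean knockout level minus the mean wild-type level, ± its standard error (SE) over 4 and 4 arrays. Positive levels are brighter than the upper quartile of the array. Levels of different probes are not compared with each other.

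The proximal part of mouse chromosome 7 is dense in gene families that arose by tandem duplication. It carries the leukocyte receptor complex, whose paired immunoglobulin-like receptors activate or restrain myeloid cells, together with Ncr1 of natural killer cells and Gp6 of platelets. It also carries KRAB zinc finger repressors, vomeronasal pheromone receptors, the imprinted Peg3 domain, the apolipoprotein E gene cluster, the carcinoembryonic antigen family and family 2 cytochrome P450 enzymes. Near-identical copies in such families can capture the same RNA. In the segment, 94 probes shared a run of at least 20 bases with a probe of another name, and 32 of the tested genes were read by such a probe.

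The 705 gene names on the segment were covered unevenly. A name was tested where a probe was well above background on at least 3 of 4 arrays of a group, and its brightest probe was used. This left 440 names (62.4%) tested and 265 not tested, and 572 of the 959 probes (59.6%) passed the filter, against 60.8% of all probes. Among the untested, 304 probes (31.7% of the segment) were well above background on no array.

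On each array, 58.1 to 65.3% of spots were well above background. Lung identity was as labelled, since all 10 tested epithelial markers averaged 5.77 to 6.43 across mice and the 6 endothelial markers averaged 2.53 to 3.13. Ggps1 itself differed by -0.06 ± 0.068 (limma, adjusted p = 0.612), and because the deleted part is not given its probe does not check the genotype labels. All arrays came from 1 slide, with wild-type mice in the first row and knockout mice in the second, so slide row and genotype cannot be told apart.

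The probes of the 3 genes that prompted the choice end in the bases below, shown because every call rests on a single probe and because Cacng7 and Cblc each have a second probe further upstream in the transcript. Each line is the last 30 bases of the 60-base probe, in the sense direction, 5′ to 3′. Capitals mark AATAAA, the polyadenylation hexamer, searched on the sense strand only.
Cacng7 downstream probe: tcatatgtaaatatcAATAAActttatttc
Cacng7 upstream probe: acgcaaaattaccccccggccatcaagtac
Cblc downstream probe: aagcagaAATAAAttgaatcctgatctttc
Cblc upstream probe: accaagccatgaactccacgttccagctgt
TC1728321 probe: agtaatggttgAATAAAtgcataaagtcaa
All 3 probes behind the calls held the hexamer in this window, and neither upstream probe did. The hexamer stood in the last 30 bases of 8.16% of all probes on the array and of 10.3% of the segment's probes, while among the probes used for tested genes it stood in 14.8% in the segment and 11.6% over all 24437 genes. A match describes the letters and is not a mapped polyadenylation site.

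Cacng7 encodes a transmembrane AMPA receptor regulatory protein, best known from neurons. Its downstream probe lies on the plus strand at chr7:3367751-3367810. Wild-type levels were -2.28, -2.19, -2.38 and -2.13, and knockout levels were -1.17, -1.35, -1.27 and -1.09. Every knockout mouse was above every wild-type mouse, and the difference was 1.03 ± 0.089, a fold of 2.04. The upstream probe, at chr7:3366442-3366501 and 1.309 kb away, read -4.42, -4.45, -4.57 and -4.38 in wild-type mice. In knockout mice it read -4.44, -4.51, -4.37 and -4.28. The groups overlapped on that probe, with a difference of 0.06 ± 0.082, although it was well above background on all 8 arrays. The rise of Cacng7 was seen with 1 of its 2 probes.

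Cblc encodes a Cbl-family ubiquitin ligase that is found mainly in epithelia. Its downstream probe lies on the minus strand at chr7:20365069-20365128. Wild-type levels were 1.37, 1.35, 1.22 and 1.40, and knockout levels were 2.12, 2.07, 2.35 and 2.11. Again no knockout mouse overlapped a wild-type mouse, and the difference was 0.82 ± 0.088, a fold of 1.77. The upstream probe, whose match spans chr7:20371618-20374331 with a gap and starts 6.549 kb away, read -0.99, -1.07, -1.26 and -1.17 in wild-type mice. Knockout mice read -0.71, -0.54, -0.58 and -0.53 on it. Both Cblc probes were therefore higher in every knockout mouse, the upstream one by 0.54 ± 0.087, a fold of 1.45.

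TC1728321 is a transcript assembly without a gene symbol in the sources used here, and its probe matches the minus strand across chr7:27089388-27089499. Wild-type levels were -2.07, -2.22, -2.11 and -1.88. Knockout levels were -0.37, -0.56, -0.37 and -0.31. No values overlapped, and the difference was the largest in the segment relative to its SE, at 1.67 ± 0.098, a fold of 3.18. No second probe carries its name.

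The calls that led to the choice of the segment depended in part on the processing. With the mean of all probes of a name in place of the brightest probe, neither Cacng7 nor Cblc was called. Both also dropped out without wild-type replicate 1, 2 or 3 or without knockout replicate 1 or 2, and Cblc without wild-type replicate 4 or knockout replicate 4. Their differences moved little when 1 mouse was left out, from 0.98 to 1.07 for Cacng7 and from 0.76 to 0.85 for Cblc. With normexp background correction the difference was smaller for Cacng7, at 0.72, and for TC1728321, at 1.38. For Cblc it was 0.80.

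The 3 transcripts were not neighbours. Cacng7 and Cblc lay 17.0 Mb apart, Cblc and TC1728321 lay 6.72 Mb apart, and each had its own set of nearby tested genes. Within 500 kb of Cacng7, 0 of 35 other tested genes rose after limma's adjustment, while 2 were higher and 11 lower at an unadjusted p under 0.05. Over all tested genes, 0.0327% rose, and 10.2% were higher and 13.4% lower at the unadjusted threshold. Around Cblc the counts were 0 of 34 rising, 3 higher and 10 lower. Around TC1728321 they were 0 of 10 rising, 1 higher and 0 lower. Median differences over these neighbours were -0.14, -0.16 and 0.02.

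Near Cacng7, Cacng6, a calcium channel gamma subunit of muscle, lay 67.8 kb away and differed by -0.04 ± 0.115. The array's probes for a long intergenic RNA 29.0 kb away differed by 0.07 ± 0.134 on one strand and by -0.06 ± 0.078 on the other. Groups overlapped for each of these.

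Beside Cblc, Bcam, the Lutheran blood group adhesion molecule, lay 23.2 kb away and differed by 0.23 ± 0.262. Bcl3, an atypical inhibitor-of-NF-κB family member, lay 28.8 kb away and differed by -0.12 ± 0.159. Nectin2, a cell adhesion receptor, differed by -0.09 ± 0.137 and Tomm40, the mitochondrial import pore, by -0.16 ± 0.078. A second Nectin2 probe differed by 0.47 ± 0.181. Further out, Ceacam16 differed by -0.17 ± 0.285 and Pvr, the poliovirus receptor homologue, by -0.63 ± 0.197 at 125 kb. Groups overlapped for each of these genes on the probe used.

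The nearest tested gene to TC1728321 was Cyp2a4, a steroid hydroxylase of the cytochrome P450 cluster, whose probe lies 10.5 kb away on the opposite strand. Cyp2a4 read 2.04, 2.23, 3.31 and 2.50 in wild-type mice and 3.82, 4.85, 2.84 and 5.07 in knockout mice. Knockout replicate 3 lay within the wild-type range, so the groups overlapped, and the difference was 1.62 ± 0.511. TC1728321 was high in that same mouse, at -0.37. A probe without a gene name 648 kb away followed Cyp2a4 closely, with 1.92, 2.14, 3.16 and 2.46 in wild-type mice and 3.67, 4.69, 2.72 and 4.92 in knockout mice. Its sequence shares a run of 31 bases with the Cyp2a4 probe, so the pair cannot be counted as separate genes. Their last 30 bases are shown to make the overlap visible, with no hexamer in either.
Cyp2a4 probe: gctgcatgaggttaaagggaatgattgaga
Unnamed probe: ctgggctgcatgaggttaaagggaatgatt
Beyond Cyp2a4 on the same side of TC1728321, Nlrp9c, a reproductive-type NLR gene, lay 50.1 kb away and differed by 0.02 ± 0.173. On the other side, the P450 gene Cyp2b9 lay 106 kb away and differed by -0.54 ± 0.434. Further out on that side, Cyp2b13 differed by 1.83 ± 1.24 and BC026762 by 0.80 ± 0.395. Groups overlapped for all of these.

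Across the segment, 3 of 440 tested genes rose (0.682%) and 0 fell in limma's moderated test at an adjusted p under 0.05. Over all tested genes 0.0327% rose and 0.0286% fell. The 3 that rose are those that chose the segment, so nothing is read from that share. On the rest of chromosome 7, 0 of 1379 genes rose and 1 fell, Chrna7, a nicotinic receptor subunit. At an unadjusted p under 0.05, limma put 132 genes (9.57%) of the rest of the chromosome higher and 195 (14.1%) lower. With the 3 set aside, 0 of the other 437 segment genes rose, and their smallest adjusted p was 0.0606.

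These other 437 segment genes were spread much like genes elsewhere. At an unadjusted p under 0.05, 41 were higher (9.38%), against 10.2% of all tested genes, and 72 were lower (16.5%), against 13.4%. Groups did not overlap and the knockout was higher for 23 (5.26%), against 5.37% on the rest of the chromosome and 6.11% of all. They did not overlap and the knockout was lower for 48 (10.98%), against 10.4% on the rest and 9.22% of all. The shares higher in the knockout were thus near the background, and the shares lower were somewhat above it, as they were on the rest of the chromosome.

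The median difference was -0.04 in the segment, -0.03 on the rest of chromosome 7 and -0.03 over all tested genes. The middle 50% of segment genes lay between -0.22 and 0.15. Without the 3, 11 segment genes (2.52%) stood above 1 on the log2 scale, against 1.96% on the rest of the chromosome and 1.70% of all. Below -1 stood 8 (1.82% of the 440), against 1.38% on the rest and 1.31% of all. Among the 20 chromosomes the share higher at an unadjusted p under 0.05 ran from 8.39 to 12.3%, and the share lower ran from 10.8 to 16.4%, so the segment's lower share sat at the top of that range.

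Within the segment the lower genes were uneven along the chromosome. The counts here leave out the 3 genes that chose the segment. In the first 5 Mb, which had held Cacng7, 19 of 81 genes (23.5%) reached an unadjusted p under 0.05 with a lower level and 6 (7.41%) with a higher one. From 5 to 10 Mb these were 2 (5.41%) and 0 of 37 genes. From 10 to 15 Mb they were 4 (9.52%) and 5 (11.9%) of 42, and from 15 to 20 Mb 19 (24.4%) and 10 (12.8%) of 78. From 20 to 25 Mb, around Cblc, they were 7 (19.4%) and 3 (8.33%) of 36. In the last 5 Mb, around TC1728321, they were 21 (12.9%) and 17 (10.4%) of 163. In the later 30 Mb steps of the chromosome the share higher was 7.26 to 12.4% and the share lower 11.3 to 16.8%.

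The border at 30 Mb did not cut through a run of changed genes. Just inside it, Spred3 differed by -0.38 ± 0.325, Ggn by 0.05 ± 0.192 and Psmd8, a proteasome subunit, by -0.14 ± 0.092. Just outside it, the potassium channel gene Kcnk6 differed by -0.17 ± 0.101, Yif1b by -0.37 ± 0.077 and 2200002D01Rik by -0.11 ± 0.107. Of these border genes, groups did not overlap for Yif1b alone, which was lower in the knockout.

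The genes of the leukocyte receptor complex were lower in knockout lungs as a group. All 12 of its listed genes were tested. Lilra5 passed the filter only through the wild-type mice, so its direction was fixed by the filter and it is left out of the counts that follow. The other 11 had a negative difference, against 54.3% of all tested genes, and 8 of them reached an unadjusted p under 0.05, against 13.4%. Their median was -0.64, against -0.03 over all tested genes. None passed limma's adjusted threshold, and for 5 the groups did not overlap. Leaving out 1 mouse at a time left 8 to 10 of the 12, Lilra5 included, lower at that threshold, and turned the sign of 1 gene without wild-type replicate 2 or knockout replicate 4. The list was drawn up with earlier results of these arrays known.

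Pira6, an activating paired immunoglobulin-like receptor, read 4.67, 4.85, 4.82 and 4.74 in wild-type mice and 4.07, 4.35, 3.70 and 4.07 in knockout mice. All knockout mice were below all wild-type mice, by -0.72 ± 0.133, and a second Pira6 probe differed by -1.11 ± 0.168. Pira11 differed by -0.70 ± 0.186 and Pira2 by -0.68 ± 0.193, and since the Pira11 and Pira7 probes share a run of 24 bases these receptors are uncertain as separate genes. Pirb, the inhibitory partner of the family, read 6.14, 6.80, 6.17 and 6.29 in wild-type mice and 6.40, 6.58, 6.17 and 5.99 in knockout mice. Its groups overlapped, with a difference of -0.07 ± 0.184. Pira6, Pira11 and Pira2 thus stood lower where Pirb did not separate, and the difference between them was not tested. Probes outside the list were mixed. Gm14548 and Gm10693, whose probes share a run of bases with the Pira7 probe, differed by -0.14 ± 0.178 with overlap and by -0.69 ± 0.160 without. The unsymboled transcript ENSMUST00000137474, at chr7:3668688-3668742 near the Pirb probe at chr7:3664137-3664196, was lower by -0.80 ± 0.190 without overlap.

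Ncr1, the natural cytotoxicity receptor NKp46 of natural killer cells, read -2.62, -3.07, -1.90 and -2.34 in wild-type mice. In knockout mice it read -3.75, -3.30, -3.28 and -3.40, below every wild-type mouse, a difference of -0.95 ± 0.240. Tarm1, an activating receptor of neutrophils and macrophages, differed by -1.16 ± 0.371 and Lair1, an inhibitory collagen receptor, by -0.64 ± 0.176, both with overlap. The other members were Pira7 at -0.41 ± 0.117, Lilra6 at -0.40 ± 0.143 and Oscar, the osteoclast-associated receptor, at -0.16 ± 0.110. Lilra5, an activating receptor of monocytes, was well above background on 4 wild-type arrays and on 0 knockout arrays, so only a bound of at least 1.035-fold lower can be given. Gp6, the platelet collagen receptor, differed by -0.47 ± 0.328, and its knockout levels of -1.86, -0.76, -1.80 and -1.93 had 1 mouse apart from the others.

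Markers of the cells that carry these receptors were also counted elsewhere in the genome, and they differed between cell types. All 8 tested monocyte markers were lower, with a summary level (mean over the list) of 3.47 to 4.09 in wild-type mice and 2.44 to 3.30 in knockout mice. All 9 natural killer markers were lower, at -0.93 to -0.29 against -1.72 to -0.80. All 11 platelet markers were lower, or 10 with quantile normalization or the deposited value table, at 0.50 to 1.30 against -0.27 to -0.09. Among those well above background on all 8 arrays, 7 of 7 natural killer and 10 of 10 platelet markers were lower. The remaining markers of these lists could pass the filter through 1 group, which can favour a direction. Of 9 tested neutrophil markers 6 were lower and 3 higher (7 and 2 with median centring), at 4.56 to 5.17 against 4.31 to 4.76. At an unadjusted p under 0.05, 8 monocyte, 2 natural killer, 10 platelet and 2 neutrophil markers were lower and 0 higher. Over all tested genes 54.3% had a negative difference and 13.4% were lower at that threshold. The summary levels of the groups overlapped for natural killer and neutrophil markers. None of these markers was below background on all arrays, and their part in the receptor differences was not tested. In whole lung, fewer cells of a type and less RNA per cell cannot be told apart.

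Other myeloid and lymphoid genes of the segment leaned the same way. Of 18 tested, 13 were lower and 5 higher, 7 and 1 of them at an unadjusted p under 0.05, against 54.3% of all tested genes lower and 13.4 and 10.2% at that threshold. The median of -0.29 became -0.13 with normexp correction and -0.17 without wild-type replicate 2. The 13 and the 7 include Nlrp12, which passed the filter only through the wild-type mice, so the filter favoured its lower direction. It was well above background on 4 wild-type and 2 knockout arrays. Its difference of -0.38 ± 0.161 became -0.05 with normexp correction. Of the 17 listed genes well above background on all 8 arrays, 12 were lower and 5 higher, with a median of -0.23. Map4k1, a haematopoietic kinase, differed by -0.55 ± 0.116 without overlap. Rasgrp4, a Ras activator of mast and myeloid cells, differed by -0.69 ± 0.142 without overlap on its brightest probe and by -0.12 ± 0.251 on its other probe. Without wild-type replicate 2 or 3 the other probe became the brightest, and the difference was -0.17 or -0.22. Plaur, the urokinase receptor, read 5.59 to 6.13 in wild-type mice and 5.14 to 5.56 in knockout mice, also without overlap. Cd79a, the signalling chain of the B cell receptor, differed by -1.01 ± 0.309 with overlap, and by -0.72 ± 0.180 on its other probe. C5ar1, the complement C5a receptor, differed by -0.43 ± 0.422, about the size of its SE. Pou2f2, a B cell transcription factor, differed by -0.35 ± 0.133 and C5ar2, the second C5a receptor, by -0.58 ± 0.243. Going the other way, Cxcl17, a mucosal chemokine, differed by 0.62 ± 0.260 and Cd177, a neutrophil surface protein, by 1.19 ± 0.520, both with overlap. Axl, a receptor kinase of macrophages that clears dying cells, differed by 0.23 ± 0.110, also with overlap.

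Tgfb1, which encodes the profibrotic and immunosuppressive cytokine TGF-β1, read 2.51, 3.02, 2.62 and 2.42 in wild-type mice. In knockout mice it read 1.80, 2.22, 1.63 and 1.77. No values overlapped, and the difference was -0.79 ± 0.169, which did not pass limma's adjusted threshold. Egln2, an oxygen-sensing prolyl hydroxylase, was higher without overlap, by 0.38 ± 0.130, and differed by 0.13 ± 0.095 on its other probe. Of the 6 genes listed with them for TGF-β and hypoxia, 4 were higher and 2 lower, and 3 to 5 were higher across the scalings and background corrections tried.

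Of the NF-κB genes of the segment, 3 of 3 had a negative difference on their brightest probe and 1 was lower at an unadjusted p under 0.05, beside 54.3 and 13.4% of all tested genes. Relb, an NF-κB subunit, differed by -0.18 ± 0.094. Nfkbib, an inhibitor of NF-κB, differed by -0.45 ± 0.146 on its brightest probe, but its other probes disagreed, at -0.37 ± 0.140 and 0.69 ± 0.245. Fosb, an AP-1 subunit, differed by -0.38 ± 0.140 and Zfp36, which destabilises cytokine mRNAs, by -0.48 ± 0.213. Of 5 genes listed as immediate early or mRNA decay genes, 5 had a negative difference and 1 was lower at that threshold. The 5 include Bbc3, Sertad1 and Sertad3, none of them a known mRNA decay gene. Bbc3 is not a known immediate early gene either.

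Family 2 cytochrome P450 genes leaned higher, as did Apoc1. Of 12 P450 names 7 were tested, 5 higher and 2 lower, with a median of 0.70, where 54.3% of all tested genes were lower. At an unadjusted p under 0.05, 2 were higher and 0 lower, against 10.2 and 13.4% of all tested genes. Among the 6 P450 genes well above background on all 8 arrays, 4 were higher and 2 lower, with a median of 0.55. Cyp2f2, the P450 enzyme of club cells, read 6.43, 5.73, 6.28 and 5.61 in wild-type mice and 6.61, 6.88, 6.54 and 6.82 in knockout mice. Its groups did not overlap, with a difference of 0.70 ± 0.198, while Cyp2b10, an enzyme induced by xenobiotics, differed by -0.34 ± 0.374. Cyp2t4 differed by 0.78 ± 0.357 and Cyp2s1, an epithelial P450, by 0.39 ± 0.191, both with overlap. Club cell markers off the segment moved the same way, with 8 of 8 higher (7 with the deposited value table) and a median difference of 1.85. Among the 6 of them well above background on all 8 arrays, 6 were higher, with a smaller median of 0.86. The summary level of the 8 was 0.98 to 5.81 in wild-type mice and 2.91 to 6.99 in knockout mice. Ciliated cell markers were higher in 12 of 12, or 11 with median centring or normexp correction, at 0.37 to 0.92 against 0.81 to 1.65. At an unadjusted p under 0.05, 3 club cell and 7 ciliated cell markers were higher. The part of these cells in the P450 differences was not tested.

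Apoc1, a small apolipoprotein that restrains lipoprotein clearance, read 2.24, 2.29, 1.86 and 1.06 in wild-type mice and 2.94, 2.41, 2.95 and 3.24 in knockout mice. The difference was 1.02 ± 0.294 without overlap. Its cluster neighbour Apoe, the main lipid carrier of macrophages, differed by 0.13 ± 0.222, and Apoc2, the activator of lipoprotein lipase, by 1.31 ± 0.908, both with overlap. Of the 22 tested genes around Cblc and the apolipoproteins 9 were higher and 13 lower, 3 and 6 at an unadjusted p under 0.05, with a median of -0.11. These 22 include Cblc, which led to the choice of the segment. Over all tested genes 10.2% were higher and 13.4% lower at that threshold. Clasrp, a splicing regulator, was higher by 0.29 ± 0.081 without overlap. Clptm1 was lower by -0.25 ± 0.064 and Zfp296, a zinc finger protein, by -0.42 ± 0.095, both without overlap. Igsf23, an immunoglobulin-fold gene of the cluster, differed by -1.06 ± 0.360 with overlap.

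Striated muscle genes varied widely between mice of a group. Of 6 tested 5 were higher and 1 lower, or 4 and 2 with median centring, with a median of 0.48. Among the 5 well above background on all 8 arrays, 4 were higher and 1 lower, with a median of 0.25. Tnni3, cardiac troponin I, read -0.88, 2.80, 0.03 and -0.01 in wild-type mice and 1.71, 2.95, 0.44 and 3.18 in knockout mice, a difference of 1.58 ± 0.887. Cardiac muscle markers off the segment followed the same mice, with summary levels of -0.64, 3.50, 0.72 and 0.78 in wild-type mice and 1.80, 3.68, 0.86 and 3.57 in knockout mice. Ckm, muscle creatine kinase, differed by 1.62 ± 1.12, and the groups overlapped for both genes. Leaving out 1 mouse moved Ckm between 0.87 and 2.55 and Tnni3 between 1.13 and 2.36. Ryr1, the calcium release channel of skeletal muscle, was the gene that read lower, by -0.83 ± 0.283 with overlap. Sbk3, a kinase listed with them, read 0.37, 0.95, 0.51 and 0.72 in wild-type mice and 1.37, 1.33, 1.36 and 1.32 in knockout mice, a difference of 0.71 ± 0.125 without overlap.

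Several large tandem families mostly lacked a testable signal in lung. Only 9 of 82 vomeronasal receptor names were tested, 5 higher and 4 lower (4 and 5 with median centring), with 0 higher and 1 lower at an unadjusted p under 0.05. That 1, Vmn2r55, was well above background on 3 wild-type and 0 knockout arrays, so the filter favoured its lower direction. Its difference of -0.67 became -0.07 with normexp background correction. Among the 5 names well above background on all 8 arrays, 4 were higher and 1 lower. Of 10 reproductive NLRP names 2 were tested, and of 25 carcinoembryonic antigen and pregnancy-specific glycoprotein names 6, with 0 past that threshold in either list. Peg3, the imprinted zinc finger gene, differed by 0.30 ± 0.217 with overlap, and 1 other name of its domain was tested.

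The zinc finger proteins were the largest of the 16 lists tested, with 44 of 57 names. Of these 25 were higher and 19 lower, or 18 and 26 with median centring, and 5 and 3 reached an unadjusted p under 0.05, with a median of 0.03. Over all tested genes 10.2% were higher and 13.4% lower at that threshold. Zfp111 was higher by 0.48 ± 0.104 (1.55 ± 0.299 on its other probe), Zfp551 by 0.38 ± 0.087 and Zscan18 by 0.35 ± 0.110, all without overlap. Of 17 genes listed for ribosome and translation 6 were higher and 11 lower, 0 and 2 at that threshold. The 2 were Rps9, a protein of the small subunit, at -0.25 ± 0.070 and Cnot3, listed with them, at -0.16 ± 0.068. Rpl28, a protein of the large subunit, differed by -0.17 ± 0.076 and did not reach it. Trim28, Tsen34 and Prpf31 are counted among the 17 though they are not ribosomal proteins or translation factors. Of 5 genes listed for DNA repair 2 were higher and 3 lower, or 3 and 2 with quantile normalization, and 1 and 2 reached an unadjusted p under 0.05. Ercc2, a helicase of nucleotide excision repair, differed by 0.26 ± 0.092 and Ercc1, a nuclease subunit of the same pathway, by -0.48 ± 0.176. Cd3eap, listed with them though not a known repair gene, differed by -0.61 ± 0.169 with overlap. It is counted among the 5 and among the 2 that were lower at that threshold.

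Of the genes whose groups did not overlap, those with the largest differences also included Mia at 0.70 ± 0.131, Fcgbp, a mucus-associated protein, at 0.62 ± 0.193 and Lgals4, an epithelial galectin, at 0.50 ± 0.140. On the lower side some large differences rested on signals near background. The unsymboled transcript ENSMUST00000116343 was well above background on 0 knockout arrays and was at least 1.724-fold lower. Rfpl4 was well above background on 3 wild-type arrays and 0 knockout arrays, and its signals allow no fold. Its measured difference of -0.91 became -0.02 with normexp background correction.

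Genes whose probe ends with the hexamer shown above were also counted apart. Without the 3 that chose the segment, 33 of 62 segment genes with it (53.2%) had a positive difference, and 159 of 375 (42.4%) of those lacking it. Over all tested genes these shares were 55.2 and 44.5%, with medians of 0.03 and -0.04. Whether the segment differs from all genes in this was not tested. The count is a description across genes, which are not independent replicates.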

How the data were processed

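Total RNA from whole lung was labelled with Cy3 and hybridised to single-colour Agilent arrays, per the labels' protocols. Spot intensity values were deposited by the authors as Feature Extraction 10.7.1.1 output, per the submitters' processing notes, with probe coordinates on mm9, per the file headers. Background subtraction was part of that processed signal. The deposited value table holds log2 values of the same arrays and served as an alternative.

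Control probes and outlier spots were left out, spots of a probe were averaged, and the 75th percentile of each array was subtracted on the log2 scale. Genes needed signals well above background on at least 3 of 4 arrays of a group, and the brightest probe stood for a name. Accessions were named through a RefSeq table (GRCm38.p6, names only), and other names are those of the array design. limma 3.58.1 in R 4.3.3 was fitted to all 24437 genes with Benjamini-Hochberg adjustment, and checked on simulated data.

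Gene lists, members and alternatives were chosen with earlier results of these data known. Genes were named where they prompted the choice, flanked such a gene or the border, led a list, or had the largest differences without overlap. Alternatives covered background correction, scaling, filter, probe choice, replicate block, variance trend, leaving out each mouse and the segment's end. The mice of a group are separate animals per the series' design text. Replicate numbers did not pair the mice. Some single-gene results are not reported here.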

Additional observations from a re-analysis of the deposited data

Results flagged for a closer look

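Among the 89 named genes, each genotype's 4 levels were checked for a value that stood far from the other 3, and 6 of 178 groups had one. Chance alone gives about 1 in 20. In Cblc, knockout replicate 3 read 2.35 and the other knockout mice read 2.07 to 2.12. In Mia, knockout replicate 4 read 1.02 against 0.65 to 0.67, and in Gp6 knockout replicate 2 read -0.76 against -1.93 to -1.80. Vmn1r70, a vomeronasal receptor, read -0.21 in knockout replicate 1 against -0.41 to -0.40. In wild-type mice, Tomm40 read 3.56 in replicate 1 against 3.69 to 3.71, and Zscan18 read -2.91 in replicate 2 against -2.57 to -2.54. Why these mice differ was not tested.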

How the results depend on the processing

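Of 1578 values of the 89 named genes under the alternatives, 1543 kept their direction and side of the threshold, 15 fell short of it, 20 moved and 0 reversed. Counts moved more. Normexp background correction gave 5 segment genes that rose (Sbk3 and Mia added) and 3 that fell (Tgfb1 and Pira6 among them), with a median difference of -0.0069, where all genes gave 229 and 283. A variance trend gave 5 and 1 (160 and 257 over all), and the mean of a gene's probes gave 1 that rose. Without the background filter 74 rose, 17 fell and 125 were higher at an unadjusted p under 0.05, with a median of 0.0243, and 2724 of all 36085 genes rose. Those added probes are mostly not above background, and of the 304 above it on no array 226 were higher in the knockout. Median centring gave a median of -0.0958. With the segment's end at 20 Mb 1 gene rose, 22 were higher and 44 lower among 239 tested genes, with a median of -0.0778. Without the 3 genes that prompted the choice 0 rose. The replicate block, with numbers that did not pair the mice (correlations of deviations from -0.29 to 0.47), gave 2 that rose and 0 that fell, losing Cblc.

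Leaving out 1 mouse at a time gave 1 to 4 genes that rose and 0 to 1 that fell. It gave 32 to 51 genes higher and 60 to 76 lower at an unadjusted p under 0.05, 8 to 10 lower leukocyte receptor genes, and medians of -0.07 to -0.03. Without knockout replicate 3, Ube2s was added to those that rose, and without knockout replicate 4, Igsf23 fell. Leaving out probes that share a run of 20 bases, chosen after seeing the data, kept 3 that rose. Signal over background limits 265 of 705 names, which could not be tested. The causes of these shifts were not tested.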
